A study of Homo sapiens and Mus musculus with 160 samples.

Results

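The mRNAs described here encode 54 core proteins of the spliceosome, the RNA and protein machine that removes introns from nuclear transcripts. They were chosen by gene name: each row of the deposited half-life tables whose symbol, ignoring case, was on a list of 54 names was taken. All 54 were found in both cell lines, among 18165 genes listed for human K562 cells and 17985 listed for mouse NIH-3T3 cells, and each had a value for every kind of half-life in every table. Human spellings are used for both species. K562 cells derive from a chronic myelogenous leukaemia, and NIH-3T3 cells are embryonic fibroblasts. Both were labelled as wild type with no treatment, and were given with 4-thiouridine, a uridine analog that marks new RNA, for 0, 15, 30, 60 or 120 min. RNA was sequenced from 5 fractions (chromatin, nucleus, cytoplasm, polysomes and total) in 2 replicate time courses per line. The 100 samples of these time courses stand behind the values, and 60 samples of K562 cells with shRNAs were not analysed here.

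The deposited values are half-lives in minutes from the authors' kinetic fit of one replicate time course, so each line has 2 tables and each gene 2 values per line for each step. Chromatin and nuclear half-lives say how long an RNA stayed in those fractions, the nuclear export half-life how long it took to leave the nucleus after release from chromatin, the polysome loading half-life how long it took from the cytoplasm onto polysomes, and the whole-cell half-life how long it lasted in all. Values below are posterior modes for replicates 1 and 2 in that order, and a mean over the 2 tables is a mean on the log2 scale. Of a short list of line markers, the erythroid genes HBG1, HBG2, GATA1 and ALAS2 had whole-cell values in K562 and none in NIH-3T3, and the fibroblast genes ACTA2 and THY1 had values in NIH-3T3 and none in K562. The collagen gene COL1A2 and the fibronectin gene FN1 had values in both lines, and the collagen gene COL1A1 had one in a single K562 replicate and in both of NIH-3T3. Reads behind each value are unknown. Since nothing says that the replicates were separate cultures, p-values measure only the spread between these tables. The line comparison shares that spread across genes.

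The spliceosome is built anew on each intron from 5 small nuclear ribonucleoproteins (snRNPs), named U1, U2, U4, U5 and U6 after their RNAs. A ring of Sm proteins surrounds the RNAs of U1, U2, U4 and U5, and a related ring of LSM proteins binds U6. U1 marks the start of an intron, U2 and its helpers mark the branch point near its end, the U4/U6.U5 particle brings in the catalytic RNAs, and the PRPF19 complex and second-step factors act as the machine is activated and the exons are joined. Several of these proteins limit their own supply through alternative exons that carry an early stop codon, a known feature of U2AF1, SNRPB and SNRNP70.

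Those 3 genes are shown by sequence because U2AF1 and SNRNP70 were among the few members for which the authors called nuclear degradation, and because SNRPB had the longest export half-life of all 54 in K562. The letters are from GENCODE v29 transcripts on hg38, printed 5′ to 3′, and capitals mark the in-frame stop codon of the transcript that GENCODE annotates as a target of nonsense-mediated decay. U2AF1 has a pair of exons of 67 bases, identical at 44 positions when laid side by side without gaps. Both occur together in 1 such transcript, where the reading frame ends inside the downstream one, but also in 1 transcript annotated as coding and in 1 annotated as a retained intron. The upstream exon (chr21:43101366-43101432, minus strand) is in 2 of 4 coding transcripts, and the downstream exon (chr21:43100453-43100519, minus strand) is in 3 of 4.
U2AF1 upstream exon: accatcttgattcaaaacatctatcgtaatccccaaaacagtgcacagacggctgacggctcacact
U2AF1 downstream exon: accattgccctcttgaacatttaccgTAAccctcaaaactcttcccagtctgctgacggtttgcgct
SNRPB alternative exon to its stop: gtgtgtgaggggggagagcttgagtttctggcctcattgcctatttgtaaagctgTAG
SNRNP70 alternative exon to its stop: ccaccacgcagctggcttgcagcTGA
The SNRPB stretch lies at chr20:2467258-2467315 on the minus strand, in an exon of 124 bases that is in 0 of 2 coding transcripts. The SNRNP70 stretch lies at chr19:49102114-49102139 on the plus strand, in an exon of 72 bases that is in 0 of 4 coding transcripts. The half-life tables give 1 value per gene, so transcripts with and without these exons were not separated, and the mouse counterparts were not examined. Of the 54 genes, 20 have a GENCODE transcript of this class, against 37.1% of 17817 human genes in the tables with an annotated structure.

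Spliceosome mRNAs were long-lived, and most had a longer nuclear half-life than the median gene. Their median whole-cell half-life was 412 min in K562, against 208 min over all genes, and 45 of the 54 lay above that all-gene median. In NIH-3T3 their median was 156 min, against 110 min over all genes, with 38 of 54 above it. The median nuclear half-life was 115 min in K562 (78.8 min over all genes, 40 of 54 above) and 98.5 min in NIH-3T3 (77.5 min over all genes, 36 of 54 above). Chromatin half-lives sat at the all-gene level in both lines. They were 50.7 min against 50 min in K562 and 61.0 min against 61.5 min in NIH-3T3. The members' K562 whole-cell median of 412 min exceeded their nuclear and cytoplasmic medians together (115 and 96.5 min). So did that of all genes, at 208 min against 78.8 and 82.2 min. Step values thus do not add up to the whole-cell value, and why was not tested.

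The steps after chromatin differed in how far the group stood from the other genes. Median export half-lives were 89.7 min in K562, where the all-gene median was 42.0 min and 45 of 54 members lay above it, and 39.5 min in NIH-3T3, where it was 33.9 min and 29 of 54 lay above. Cytoplasmic half-lives had medians of 96.5 min in K562 (82.2 min over all genes, 35 of 54 above) and 38.7 min in NIH-3T3 (36.0 min over all genes, 29 of 54 above). Polysome loading stood out in the other direction. Its median was 4.44 min in K562 and 5.95 min in NIH-3T3, against 10.2 min over all genes in each line, and only 7 of 54 members in K562 and 8 of 54 in NIH-3T3 lay above those medians. Loading is the least precise step: the 95% credible interval spanned at most 4-fold in both replicates for 2 members in K562 and 18 in NIH-3T3, and for all 54 members at the chromatin, nuclear and whole-cell steps in both lines.

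**Figure D1:**
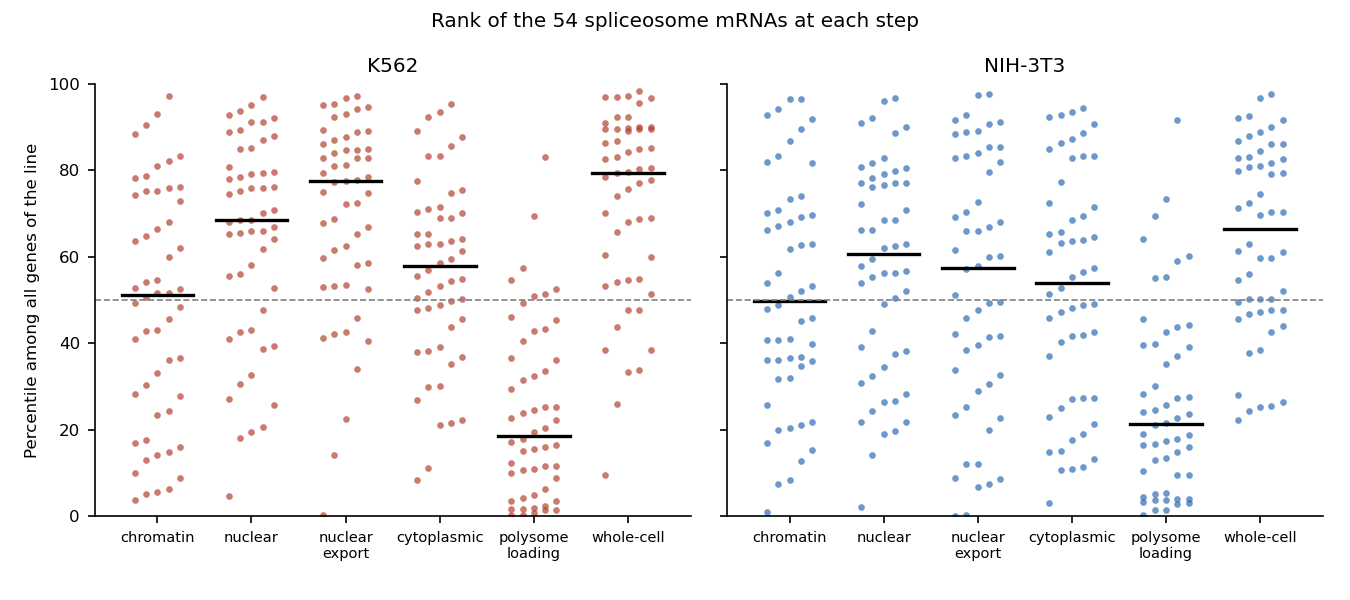
Percentile of each of the 54 mRNAs among all genes of its line (vertical axis, 0 to 100) at 6 steps, with K562 on the left and NIH-3T3 on the right. Each point is 1 mRNA placed by its mean over 2 replicates, the black bar is the members' median and the dashed line is the all-gene median. Whole-cell values lie mostly above the dashed line (45 of 54 in K562, 38 of 54 in NIH-3T3) and polysome loading values mostly below it.

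At the top of the whole-cell scale in K562 stood SNRPE (1200 and 1200 min), a Sm ring protein, SF3B6 (1400 and 720 min), a U2 protein that sits at the branch point, and LSM3 (960 and 1000 min), a U6 ring protein. SF3B6 differed almost 2-fold between replicates, and these 3 were not separated by more than that spread. All 3 lay far above the longest labelling time of 120 min. At the bottom were LSM8 (79 and 57 min), the ring protein found only in the U6 ring, CWC22 (110 and 130 min), which places the exon junction complex, and SYF2 (160 and 130 min). In NIH-3T3 the longest-lived were SNRPF (720 and 540 min), LSM4 (490 and 560 min) and SNRPB (390 and 350 min). The shortest-lived there were PRPF4 (62 and 63 min), CDC40 (63 and 68 min) and CWC22 (69 and 65 min). The replicate range of CDC40 met those of the others, while both CWC22 values lay above both of PRPF4. CWC22 was thus near the bottom in both lines.

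**Figure D2:**
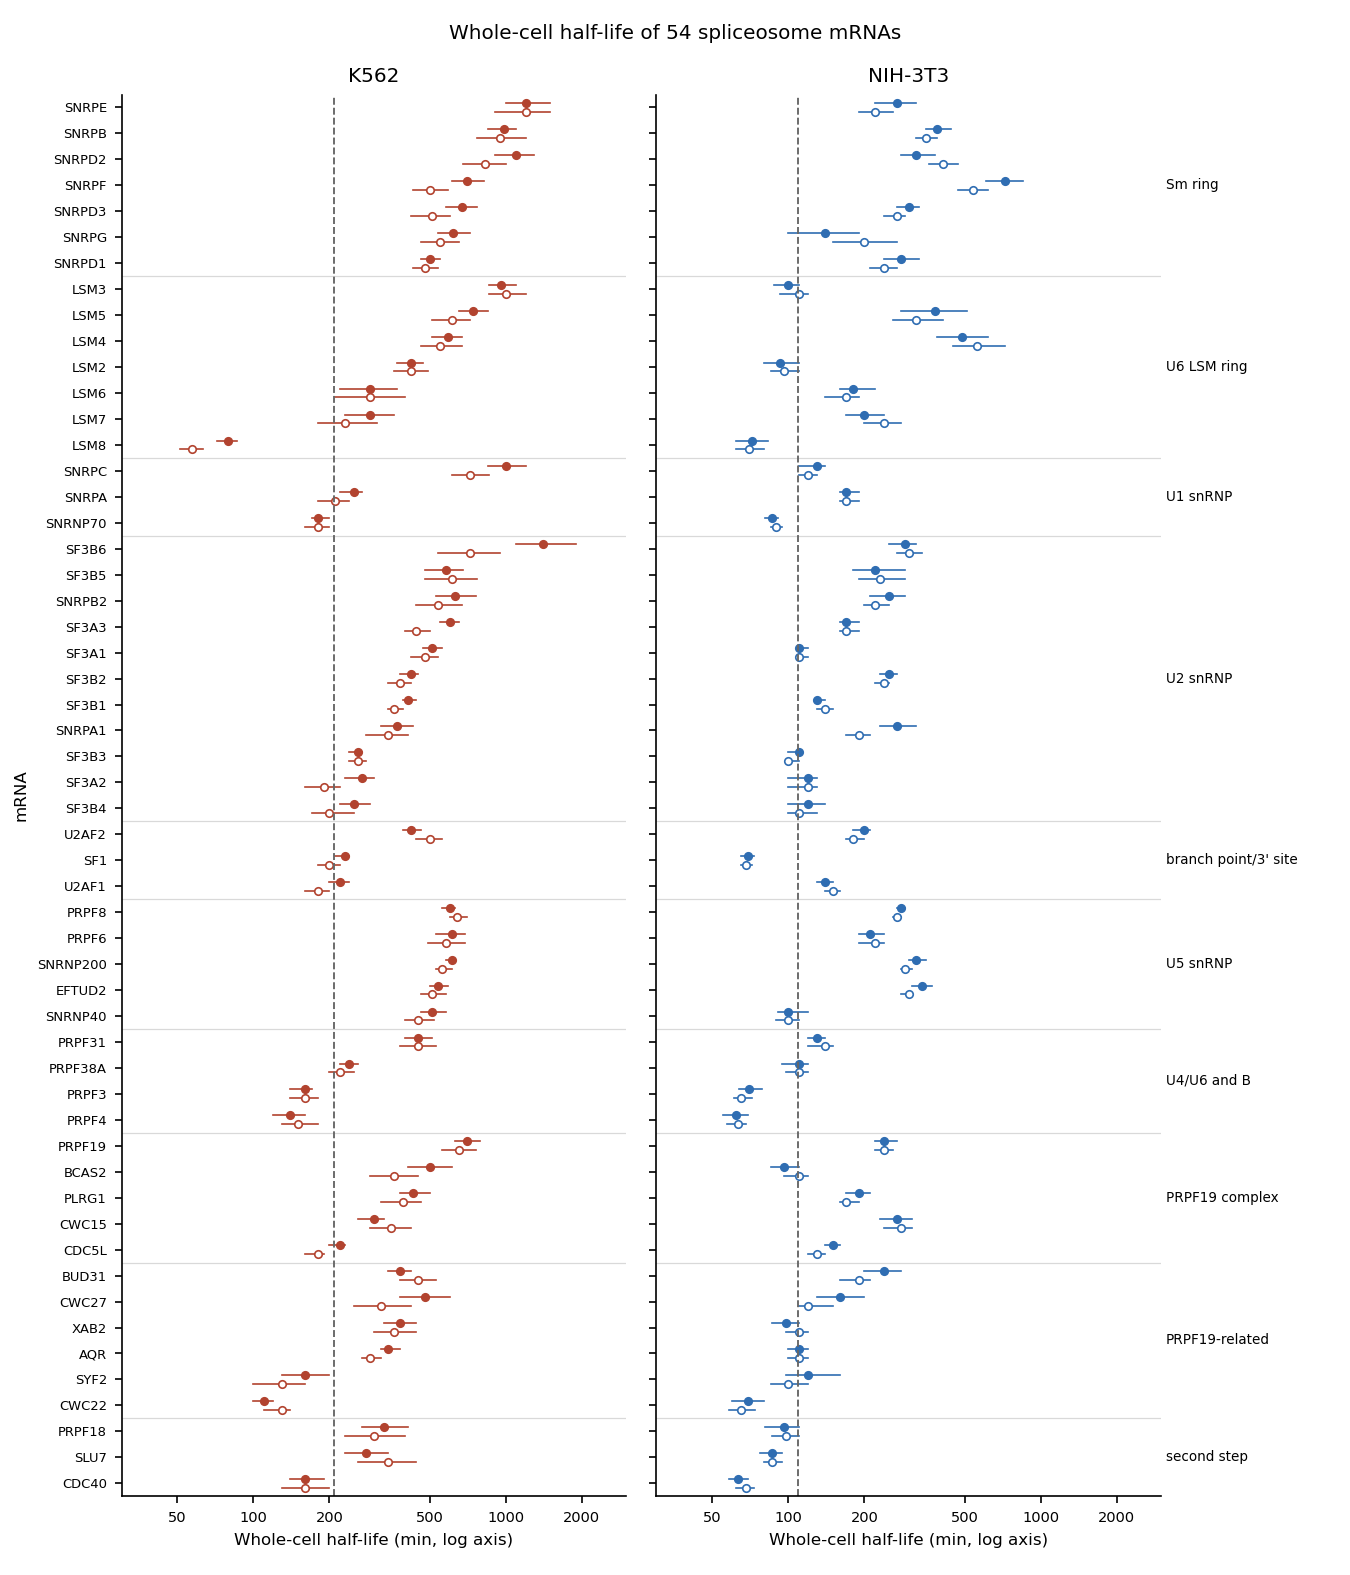
Whole-cell half-life in minutes (log axis) of each mRNA, grouped by the role of its protein, in K562 (left) and NIH-3T3 (right). Filled points are replicate 1, open points replicate 2, bars the authors' 95% credible intervals, and the dashed line is the median of all genes of that line. All 7 Sm ring mRNAs lie right of the dashed line in both lines, and LSM8 lies left of it in both.

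On chromatin the longest K562 half-lives were those of SNRPD2 (160 and 270 min), PRPF18 (130 and 150 min) and PRPF8 (120 and 120 min), and the shortest those of LSM6 (19 and 22 min), U2AF1 (20 and 24 min) and SYF2 (20 and 25 min). In NIH-3T3 the U5 proteins SNRNP200 (310 and 430 min), PRPF8 (310 and 410 min) and EFTUD2 (210 and 380 min) were slowest to leave chromatin. LSM8 (10 and 11 min), BCAS2 (16 and 26 min) and LSM2 (16 and 28 min) were fastest. Replicate 2 gave longer chromatin half-lives in NIH-3T3 at the median, with an all-gene median of 72 min against 54 min in replicate 1, so an order among neighbours there was not resolved.

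In the whole nucleus SNRPD2 (410 and 510 min), SNRPB (300 and 430 min) and PRPF8 (280 and 340 min) stayed longest in K562, and LSM8 (26 and 26 min), SYF2 (40 and 45 min) and U2AF1 (38 and 50 min) shortest. SNRPF (500 and 420 min), LSM4 (500 and 360 min) and SNRNP200 (310 and 310 min) stayed longest in NIH-3T3. LSM8 (15 and 25 min), PRPF4 (37 and 32 min) and SF1 (38 and 40 min) were shortest there. Export was slowest in K562 for SNRPB (250 and 380 min), SNRPD2 (280 and 300 min) and SNRPE (170 and 330 min), all of the Sm ring, and fastest for LSM8 (2.3 and 1.9 min), SNRNP70 (14 and 13 min) and SF3A2 (31 and 13 min). Among 50 NIH-3T3 members with export intervals of at most 4-fold, LSM5 (120 and 130 min), SNRPD2 (120 and 110 min) and SNRPB2 (140 and 89 min) were slowest. SF1 (4.3 and 2.8 min), PRPF4 (22 and 6.6 min) and PRPF8 (15 and 11 min) were fastest. Within that limit SNRPD2 was among the 3 slowest to be exported in both lines. SNRPF and LSM4, left out for wider NIH-3T3 intervals, had longer export means there, at 212 and 208 min.

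Once in the cytoplasm, LSM5 (430 and 240 min), SNRPA1 (340 and 220 min) and CWC27 (240 and 270 min) lasted longest in K562, and SNRPB2 (19 and 25 min), SNRPD2 (25 and 25 min) and CWC22 (40 and 36 min) shortest. In NIH-3T3, among 51 members with intervals of at most 4-fold, BCAS2 (140 and 130 min), LSM6 (120 and 130 min) and SNRPE (110 and 130 min) lasted longest. PRPF8 (9.6 and 7.7 min), PLRG1 (15 and 15 min) and SF3B4 (16 and 17 min) lasted shortest. None of the 3 longest or 3 shortest cytoplasmic members was shared by the lines.

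Most spliceosome mRNAs lived longer in K562 than in NIH-3T3, as did most genes. In a limma fit of log2 half-lives over all genes paired by symbol, 44 of 54 had a longer whole-cell half-life in K562 at a Benjamini-Hochberg adjusted p under 0.05 and 0 a shorter one, where 60.2% of the 8913 genes tested were called longer and 5.06% shorter. The members' median log2 difference was 1.26, against 0.84 over all genes. With each table centred on its own median, which removes that general shift, 18 of 54 were longer in K562 and 7 shorter, against 18.2% and 26.3% of all genes. The 7 were LSM8, SNRPF, LSM4, CWC15, LSM7, SNRPA and U2AF1, so the LSM ring held 3 of them beside 2 longer members, LSM3 and LSM2. With either NIH-3T3 replicate left out no member was called, without K562 replicate 1 there were 34, and without K562 replicate 2 there were 38. The differences belong to 2 lines that also differ in species, tissue and annotation, which cannot be told apart.

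LSM3, part of the U6 ring and also of the cytoplasmic ring that promotes decapping, showed the largest whole-cell difference. Its half-life was 960 and 1000 min in K562, against 100 and 110 min in NIH-3T3, a log2 difference of 3.22 (SE 0.10, limma adjusted p = 0.0033). SNRPC, the U1 protein that helps to recognise the intron's start, followed with 1000 and 720 min in K562 against 130 and 120 min in NIH-3T3 (log2 difference 2.76, SE 0.20, limma adjusted p = 0.0035). The other 8 of the 10 largest were SNRPE, SNRNP40, SF3A1, LSM2, BCAS2, SLU7, XAB2 and SNRPG, with log2 differences of 2.30 down to 1.80. The other 10 members did not pass the test. For LSM8 (79 and 57 min in K562, 72 and 70 min in NIH-3T3) and SNRPF (700 and 500 min in K562, 720 and 540 min in NIH-3T3) the log2 differences were -0.08 each, with SE 0.20 and 0.26. The remaining 8 were SNRPA, SNRPA1, U2AF1, CDC5L, CWC15, SYF2, LSM4 and LSM7, with log2 differences of 0.12 to 0.65.

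The lines differed at the single steps as well, and not in 1 direction. On chromatin 6 members were longer and 19 shorter in K562 (10% and 28.6% of all genes; the members' median log2 difference was -0.48 and that of all genes -0.35). After centring, 15 were longer and 19 shorter, against 25.8% and 26.8% of all genes. The SEs of the 10 largest chromatin differences all lay between 0.36 and 0.37. Chromatin p-values thus rest mostly on the spread pooled over genes, not on a gene's own replicates. In the nucleus 17 members were longer and 7 shorter, where 19.9% and 20% of genes were called, and their median log2 difference was 0.34 where that of all genes was 0. Export half-lives were longer for 6 members and shorter for 1 (4.36% and 4.6% of all genes), with median log2 differences of 1.21 over the members and 0.33 over all genes. In the cytoplasm 35 were longer and 1 shorter, against 53.4% and 2.08% of all genes, with medians of 1.27 and 1.11. After centring, 7 cytoplasmic half-lives were longer and 8 shorter, near the 9.84% and 14% of all genes. Leaving out any 1 of the 4 tables brought the chromatin count to 0 to 3, the nuclear and export counts to 0, and the cytoplasmic count to 0, or to 18 without K562 replicate 2.

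**Figure D3:**
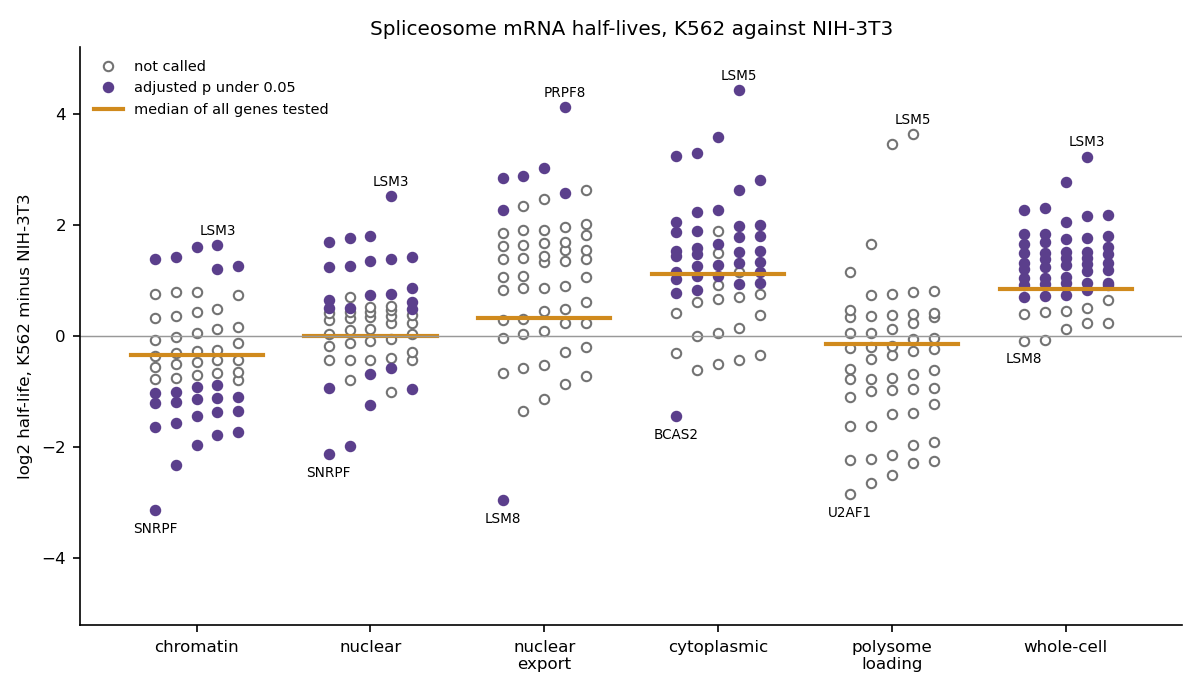
Log2 half-life in K562 minus that in NIH-3T3 (vertical axis) for each of the 54 mRNAs at 6 steps. Filled points passed limma at an adjusted p under 0.05, open points did not, and orange bars are the median of all genes tested. The whole-cell points lie above 0 for 52 of 54 mRNAs, and no polysome loading point is filled.

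The 7 Sm ring mRNAs had the highest median whole-cell half-life of the 10 role groups in both lines, at 592 min in K562 and 285 min in NIH-3T3. The U5 group lay close behind, at 584 min and 275 min. All 7 Sm ring mRNAs lay above the all-gene median at the nuclear, export and whole-cell steps in both lines. Of these, 6 were called longer in K562, the exception being SNRPF, which differed between the lines in where it spent its time. SNRPF had a chromatin half-life of 24 and 34 min in K562 against 200 and 310 min in NIH-3T3 (log2 difference -3.12, SE 0.37, limma adjusted p = 1.6e-10). Its nuclear half-life was 86 and 130 min in K562 against 500 and 420 min in NIH-3T3, while its cytoplasmic half-life was 230 and 160 min in K562 against 16 and 24 min in NIH-3T3 (log2 difference 3.29, SE 0.33, limma adjusted p = 0.0070). The lines did not overlap at any of these steps. The human gene lies at chr12:95858928-95903828 on the plus strand.

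SNRPD2 and SNRPE were the 2 ring mRNAs called longer in the K562 nucleus, where SNRPF was called shorter. For SNRPD2 the nuclear half-life was 410 and 510 min in K562 against 160 and 190 min in NIH-3T3 (log2 difference 1.39, SE 0.18, limma adjusted p = 0.015). In the cytoplasm it lasted 25 and 25 min in K562 and 54 and 23 min in NIH-3T3, where the replicates themselves spread over 2-fold. SNRPE, whose protein joins the ring together with SNRPF and SNRPG, had whole-cell half-lives of 1200 and 1200 min in K562 against 270 and 220 min in NIH-3T3 (log2 difference 2.30, SE 0.14, limma adjusted p = 0.0033), and it stayed longer in the K562 nucleus (200 and 370 min against 94 and 110 min in NIH-3T3). The shortest-lived of the ring were SNRPD1 in K562 (500 and 480 min) and SNRPG in NIH-3T3 (140 and 200 min).

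The 7 U6 LSM ring mRNAs spanned nearly the whole range. Their median whole-cell half-life was 420 min in K562 and 175 min in NIH-3T3, but LSM8 stood at 79 and 57 min in K562 and at 72 and 70 min in NIH-3T3. LSM2 to LSM7 also enter the cytoplasmic decapping ring, which LSM8 does not. LSM3 stayed longer in K562 at every step before the cytoplasm: its nuclear half-life was 220 and 300 min against 56 and 36 min in NIH-3T3 (log2 difference 2.52, SE 0.30, limma adjusted p = 0.014), and its export half-life 170 and 220 min against 46 and 23 min (log2 difference 2.57, SE 0.51, limma adjusted p = 0.043). LSM2 followed with nuclear half-lives of 120 and 160 min in K562 against 44 and 36 min in NIH-3T3. LSM4 moved the other way, with 96 and 120 min in K562 against 500 and 360 min in NIH-3T3 (log2 difference -1.98, SE 0.24, limma adjusted p = 0.014). It also left chromatin sooner in K562, at 39 and 57 min against 220 and 250 min. In the cytoplasm LSM5 showed the widest gap of all members, with 430 and 240 min in K562 against 14 and 16 min in NIH-3T3 (log2 difference 4.42, SE 0.36, limma adjusted p = 0.0070). Its NIH-3T3 cytoplasmic intervals spanned more than 4-fold in at least 1 replicate. LSM8 was exported sooner in K562, at 2.3 and 1.9 min against 12 and 22 min in NIH-3T3 (log2 difference -2.96, SE 0.49, limma adjusted p = 0.033), the sole call in that direction. LSM6 and LSM7 left chromatin quickly in K562, at 19 and 22 min and at 29 and 29 min, below the all-gene median there.

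Among the 3 U1 mRNAs, export after release from chromatin was fastest for SNRNP70 in both lines and slowest for SNRPC in K562. SNRNP70, which encodes the U1 protein that contacts many splicing regulators, had an export half-life of 14 and 13 min in K562 and 6.8 and 3.8 min in NIH-3T3, while SNRPC had 160 and 210 min in K562 and 55 and 40 min in NIH-3T3. The export interval of SNRNP70 in NIH-3T3 was wider than 4-fold in replicate 1, and nuclear degradation was called for it in that line. On chromatin SNRNP70 was the longest of the 3 in K562, with a mean of 87.9 min. In the nucleus SNRPC stayed 200 and 250 min in K562 against 66 and 66 min in NIH-3T3 (log2 difference 1.76, SE 0.16, limma adjusted p = 0.011), and in the cytoplasm 100 and 73 min against 120 and 110 min. SNRPA, the third U1 protein, had a whole-cell half-life of 250 and 210 min in K562 and 170 and 170 min in NIH-3T3, which did not pass the test (log2 difference 0.43, SE 0.13, limma adjusted p = 0.055).

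The 11 U2 snRNP mRNAs had a median whole-cell half-life of 399.5 min in K562, with all 11 above the all-gene median, and of 170 min in NIH-3T3, with 10 of 11 above. Of the 11, 10 were called longer in K562, the exception being SNRPA1. SF3B6 was the longest-lived in both lines (1400 and 720 min in K562, 290 and 300 min in NIH-3T3), and the shortest-lived were SF3B4 in K562 (250 and 200 min) and SF3B3 in NIH-3T3 (110 and 100 min). SF3B1, the subunit that holds the branch point, stayed 200 and 170 min in the K562 nucleus and 120 and 120 min in the NIH-3T3 nucleus. SF3A2 showed one of the largest cytoplasmic differences, with 170 and 190 min in K562 against 20 and 18 min in NIH-3T3 (log2 difference 3.24, SE 0.20, limma adjusted p = 0.0070). SF3A1, its partner in the same subcomplex, had 79 and 85 min in K562 against 18 and 17 min in NIH-3T3 (log2 difference 2.23, SE 0.19, limma adjusted p = 0.0070). SF3B5, a small subunit of the same branch point complex, had whole-cell half-lives of 580 and 610 min in K562 against 220 and 230 min in NIH-3T3. SF3B2 left chromatin sooner in K562, at 40 and 43 min against 120 and 170 min in NIH-3T3 (log2 difference -1.78, SE 0.36, limma adjusted p = 6.1e-05). SNRPB2 and SNRPA1, which bind U2 RNA as a pair, lay at opposite ends in K562: their cytoplasmic half-lives were 19 and 25 min for SNRPB2 and 340 and 220 min for SNRPA1.

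Of the 3 factors that recognise the branch point and the intron's end, 2 lived less long than most members. SF1, which binds the branch point first, had a whole-cell half-life of 230 and 200 min in K562 against 69 and 68 min in NIH-3T3, and U2AF1, which reads the AG at the intron's end, had 220 and 180 min in K562 against 140 and 150 min in NIH-3T3. U2AF2, the partner that binds the pyrimidine tract, was longest-lived of the 3 in K562 (420 and 500 min) and in NIH-3T3 (200 and 180 min). Export of U2AF2 was slower in K562, at 88 and 120 min against 15 and 13 min in NIH-3T3 (log2 difference 2.88, SE 0.43, limma adjusted p = 0.032), although it left chromatin sooner, at 74 and 76 min against 160 and 260 min (log2 difference -1.44, SE 0.37, limma adjusted p = 0.0011). SF1 showed the same slower export in K562, at 21 and 38 min against 4.3 and 2.8 min (log2 difference 3.03, SE 0.51, limma adjusted p = 0.034). Values of U2AF1 in K562 are uncertain, because genes with related names are listed beside it: U2AF1L5 had whole-cell half-lives of 40 and 24 min and U2AF1L4 of 88 and 88 min. How far their sequences match that of U2AF1 was not examined. How the authors' counting divided reads among them is not given in the sources used here.

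Of the 5 U5 mRNAs, 3 were called shorter on chromatin in K562 and 3 called longer in export, and PRPF8 and SNRNP200 were called in both. PRPF8, the scaffold of the catalytic centre, had a chromatin half-life of 120 and 120 min in K562 against 310 and 410 min in NIH-3T3 (log2 difference -1.57, SE 0.36, limma adjusted p = 0.00036), and an export half-life of 190 and 260 min in K562 against 15 and 11 min in NIH-3T3 (log2 difference 4.11, SE 0.44, limma adjusted p = 0.028). SNRNP200, the helicase that unwinds U4 from U6, showed the same pair of differences, with 110 and 110 min on chromatin in K562 against 310 and 430 min in NIH-3T3. Its export half-life was 130 and 170 min in K562 against 25 and 17 min in NIH-3T3 (log2 difference 2.85, SE 0.45, limma adjusted p = 0.033). EFTUD2, the U5 GTPase, left chromatin at 93 and 88 min in K562 against 210 and 380 min in NIH-3T3, and its export half-life of 81 and 200 min in K562 against 76 and 15 min in NIH-3T3 did not pass the test (log2 difference 1.91, SE 0.89, limma adjusted p = 0.19). The nuclear half-lives of PRPF8 were 280 and 340 min in K562 and 280 and 290 min in NIH-3T3, which did not pass the test (log2 difference 0.11, SE 0.15, limma adjusted p = 0.56).

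Whole-cell half-lives of the 5 U5 mRNAs lay within 479 to 620 min in K562 as means over replicates and within 100 to 319 min in NIH-3T3. All 5 were longer in K562. SNRNP40, a WD-repeat protein of U5, differed most (510 and 450 min in K562 against 100 and 100 min in NIH-3T3, log2 difference 2.26, SE 0.11, limma adjusted p = 0.0033). Its NIH-3T3 chromatin half-life was 35 and 50 min, the lowest of the 5, and its export half-life was longer in K562 (88 and 140 min against 28 and 19 min). In the cytoplasm PRPF8 lasted 64 and 56 min in K562 against 9.6 and 7.7 min in NIH-3T3 (log2 difference 2.80, SE 0.22, limma adjusted p = 0.0070), and SNRNP200 160 and 130 min against 22 and 25 min (log2 difference 2.62, SE 0.22, limma adjusted p = 0.0070). The human PRPF8 gene lies at chr17:1650629-1684882 on the minus strand. A limit applies to its chromatin and export values. In NIH-3T3 the chromatin half-life of PRPF8 exceeded its nuclear one (280 and 290 min), with credible intervals apart in both replicates. This held for 1 of 54 members there, against 0.571% of all genes, and for 0 of 54 in K562, against 0.779%. In NIH-3T3 replicate 2 alone, further members had chromatin intervals above their nuclear ones. Among them were SNRNP200 (410 to 440 against 300 to 330 min), EFTUD2 (360 to 410 against 250 to 290 min) and U2AF2 (240 to 270 against 150 to 170 min). In replicate 1 the intervals overlapped for SNRNP200 and U2AF2, and EFTUD2 was shorter on chromatin (200 to 220 against 250 to 290 min).

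**Figure D4:**
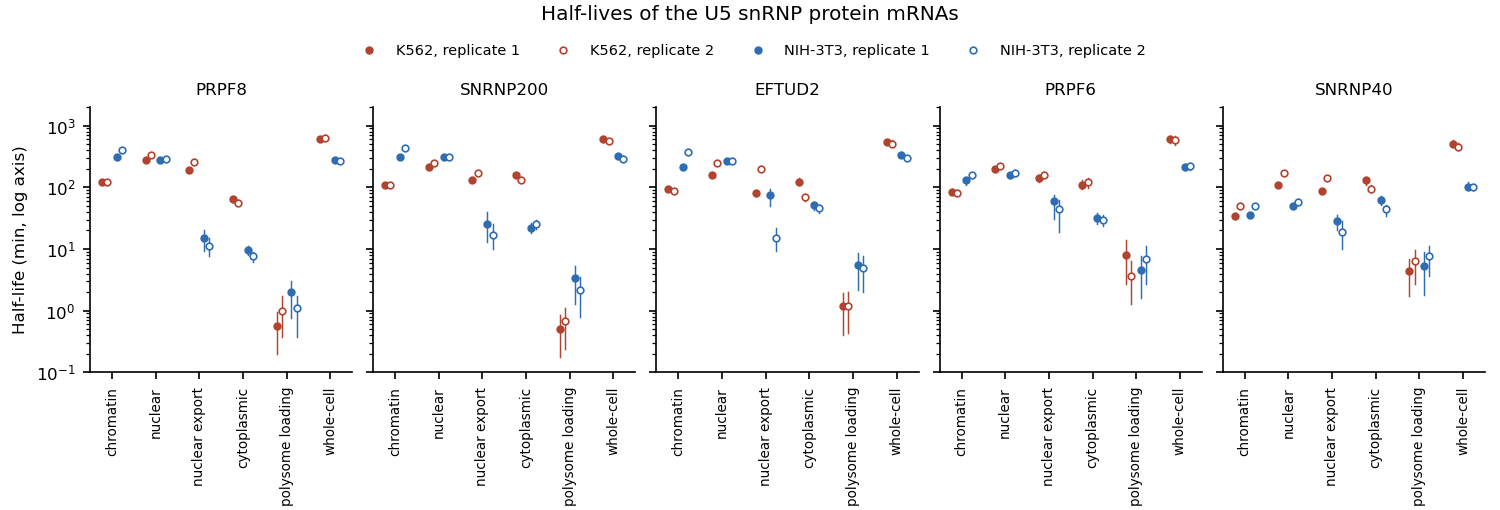
Half-lives in minutes (log axis) of the 5 U5 snRNP protein mRNAs at 6 steps, in K562 (red, left of each pair) and NIH-3T3 (blue, right). Filled points are replicate 1, open points replicate 2 and bars the authors' 95% credible intervals. PRPF8 and SNRNP200 have shorter chromatin and longer export half-lives in K562, as at 190 and 260 min for PRPF8 export against 15 and 11 min in NIH-3T3.

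The U4/U6 and complex B mRNAs were among the shorter-lived, with a median of 192 min in K562 and 86.1 min in NIH-3T3. PRPF31, which holds U4 and U6 together, lasted longest, at 450 and 450 min in K562 against 130 and 140 min in NIH-3T3, and PRPF4 shortest, at 140 and 150 min against 62 and 63 min. PRPF3, which works beside PRPF4, stayed longer in the K562 nucleus, at 100 and 100 min against 44 and 40 min in NIH-3T3 (log2 difference 1.25, SE 0.12, limma adjusted p = 0.011). PRPF38A, a complex B protein, had whole-cell half-lives of 240 and 220 min in K562 against 110 and 110 min in NIH-3T3. All 4 were called longer in K562.

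Within the PRPF19 complex, PRPF19 itself, a ubiquitin ligase, was longest-lived in K562 (700 and 650 min) and CDC5L, its DNA- and RNA-binding partner, shortest (220 and 180 min). In NIH-3T3 CWC15 (270 and 280 min) was longest-lived and BCAS2 (96 and 110 min) shortest. BCAS2, a small partner of the complex, was the sole member called shorter in the K562 cytoplasm, at 49 and 51 min against 140 and 130 min in NIH-3T3 (log2 difference -1.43, SE 0.19, limma adjusted p = 0.0084). Its nuclear half-life went the other way, at 130 and 180 min in K562 against 50 and 45 min in NIH-3T3 (log2 difference 1.69, SE 0.21, limma adjusted p = 0.015). PLRG1, a WD-repeat partner, had the second largest cytoplasmic gap of the 54, with 190 and 170 min in K562 against 15 and 15 min in NIH-3T3 (log2 difference 3.58, SE 0.19, limma adjusted p = 0.0070). CWC15 left chromatin sooner in K562, at 24 and 28 min against 79 and 130 min in NIH-3T3 (log2 difference -1.97, SE 0.37, limma adjusted p = 1.4e-05), and lasted longer in the cytoplasm, at 100 and 81 min against 21 and 24 min.

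The 6 activation proteins had a median whole-cell half-life of 341 min in K562 and 110 min in NIH-3T3, and 5 of them were called longer in K562. BUD31 was longest-lived in both lines (380 and 450 min in K562, 240 and 190 min in NIH-3T3) and CWC22 shortest. XAB2, which joins the helicase AQR in one subcomplex, had 380 and 360 min in K562 against 98 and 110 min in NIH-3T3 (log2 difference 1.83, SE 0.11, limma adjusted p = 0.0033). AQR had 340 and 290 min in K562 and 110 and 110 min in NIH-3T3, with cytoplasmic half-lives of 130 and 130 min against 33 and 30 min (log2 difference 2.05, SE 0.19, limma adjusted p = 0.0070). CWC27, a cyclophilin-type protein, lasted 240 and 270 min in the K562 cytoplasm and 100 and 77 min in that of NIH-3T3. SYF2 did not pass the whole-cell test.

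All 3 second-step factors were called longer in K562. SLU7, which helps to choose the intron's end, had whole-cell half-lives of 280 and 340 min in K562 against 86 and 86 min in NIH-3T3 (log2 difference 1.84, SE 0.14, limma adjusted p = 0.0035). CDC40 was the shortest-lived of the 3 in both lines, at 160 and 160 min in K562 and 63 and 68 min in NIH-3T3, with cytoplasmic half-lives of 110 and 91 min against 18 and 24 min (log2 difference 2.27, SE 0.25, limma adjusted p = 0.0073). PRPF18 was the longest-lived, at 330 and 300 min and 96 and 98 min. PRPF18 was one of 6 members called longer on chromatin in K562, at 130 and 150 min against 42 and 51 min in NIH-3T3 (log2 difference 1.59, SE 0.36, limma adjusted p = 0.00029). LSM3 was another, at 64 and 94 min against 25 and 25 min (log2 difference 1.63, SE 0.37, limma adjusted p = 0.00023).

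More members had a longer nuclear than cytoplasmic half-life than the reverse, in both lines. Counting members whose nuclear and cytoplasmic credible intervals were apart in the same direction in both replicates, the nuclear half-life was longer for 26 and shorter for 12 of 54 in K562, against 24.2% and 26.4% of all genes. In NIH-3T3 it was longer for 35 and shorter for 7 of 54, against 51.8% and 5.73% of all genes. The nuclear half-life made up a median 52.8% and 60.5% of the sum of nuclear and cytoplasmic half-lives over the members in K562 replicates 1 and 2 (45.2% and 51.2% over all genes). In NIH-3T3 it made up 70.7% and 74.6% (65.4% and 66.9% over all genes). The nuclear half-life was longer in both lines for 20 of 54 members and shorter in both for 3, against 20.5% and 3.69% of all genes. The 20 included SNRPB, SNRPD2, PRPF8, SNRNP200, EFTUD2, PRPF6 and 8 of the 11 U2 mRNAs, and the 3 were SF1, LSM6 and LSM8.

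**Figure D5:**
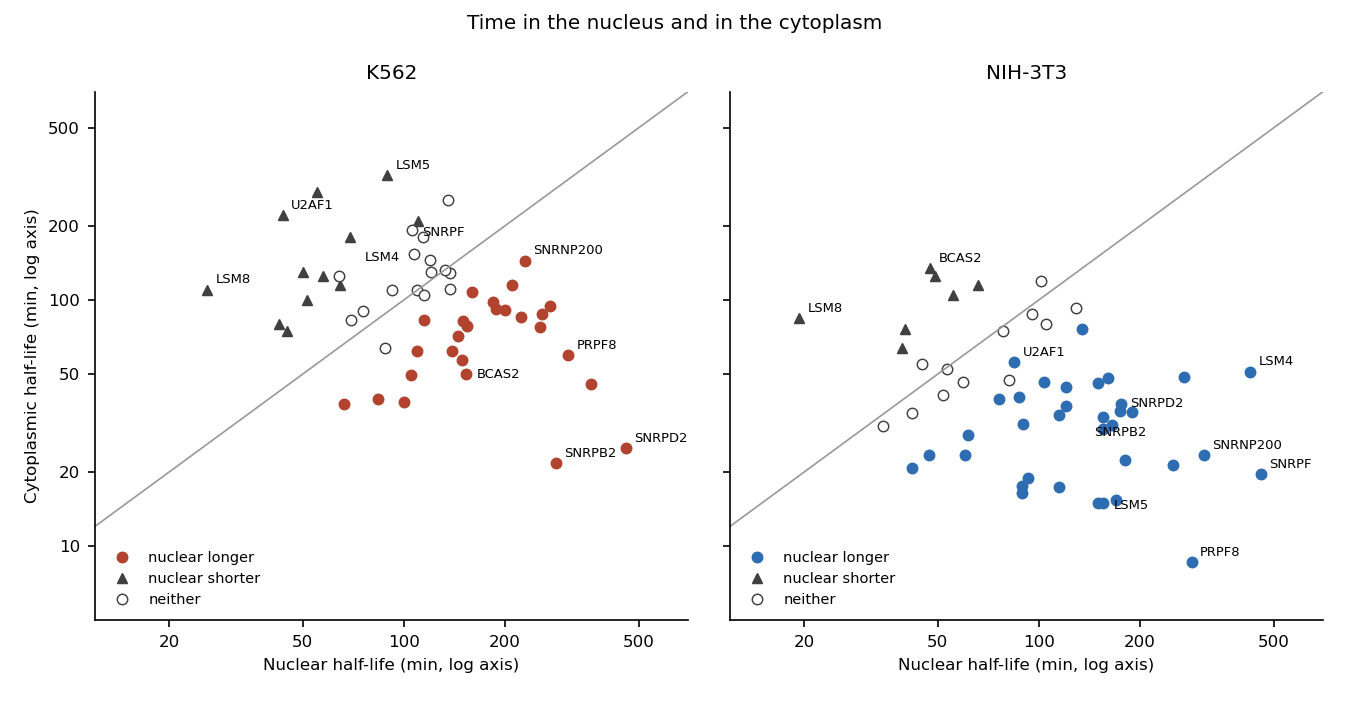
Cytoplasmic half-life (vertical, minutes, log axis) against nuclear half-life (horizontal, minutes, log axis) of the 54 mRNAs in K562 (left) and NIH-3T3 (right), as means over 2 replicates, with the line of equality. Filled circles have a longer and triangles a shorter nuclear half-life, with credible intervals apart in both replicates, and open circles neither. The filled circles number 26 in K562 and 35 in NIH-3T3, and SNRPF, LSM5 and BCAS2 change sides between the panels or move to or from the middle.

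Members with long nuclear stays tended to have short cytoplasmic ones. Across the 54 mRNAs Spearman's rho between nuclear and cytoplasmic half-life was -0.30 in K562 and -0.36 in NIH-3T3, where it was 0.08 and 0.02 across all genes. These values describe genes measured in the same libraries and fitted in one model, and genes are not independent replicates. Whole-cell half-life followed the nuclear one (rho 0.83 in K562 and 0.92 in NIH-3T3 over the members, 0.76 and 0.90 over all genes) and not the cytoplasmic one (0.0021 in K562 and -0.15 in NIH-3T3 over the members, 0.43 and 0.17 over all genes). Between the lines, the order of the members held best for the whole-cell half-life, with rho 0.68 (0.63 over all genes), and least for the cytoplasmic half-life, with rho 0.25 (0.58 over all genes).

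For 7 of 54 members the order of nucleus and cytoplasm was opposite in the lines, against 13.2% of all genes. SF3A2, U2AF1, CDC40 and LSM5 were shorter in the nucleus than in the cytoplasm in K562 and longer in NIH-3T3, and SNRPC, BCAS2 and LSM2 were the reverse. Tested as the difference between lines in the log2 ratio of cytoplasmic to nuclear half-life, all 7 passed limma. They were picked on the same half-lives, so their passing adds no separate support. Over the group 21 ratios were higher and 4 lower in K562 (38.4% and 4.02% of all genes), and after centring 11 were higher and 10 lower (14.5% and 15.5% of all genes). Without single tables the called number was 0, or 15 without K562 replicate 2.

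Release from chromatin and export showed different orders in the 2 lines. In K562 the chromatin half-life was longer than the export half-life for 5 of 54 members and shorter for 36, against 26.9% and 19.7% of all genes. The 5 were SF3A2, SNRNP70, PRPF18, PRPF31 and LSM8. In NIH-3T3 chromatin was longer for 16 and shorter for 4 (29.8% and 1.56% of all genes), the 4 being SNRPD3, SNRPE, LSM5 and LSM7. The 16 included 4 of the 5 U5 mRNAs and both U2AF2 and SF1. From replicate 1 alone 16 were longer and 15 shorter, and from replicate 2 alone 33 and 6, and replicate 2 of NIH-3T3 had shorter export half-lives overall (all-gene medians of 41 min in replicate 1 and 28 min in replicate 2). The log2 ratio of chromatin to export half-life was higher in K562 for 1 member, LSM8, and lower for 8 (1.92% and 5.21% of all genes). Those 8 were PRPF8, SNRNP200, U2AF2, EFTUD2, PRPF19, SF1, SNRPB and SF3A1. The order itself was opposite in the lines for 9 of 54 members (6.37% of all genes), of which 4 were called. Without NIH-3T3 replicate 1 the called number was 31, and without any 1 of the other 3 tables it was 0 to 2.

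Every member for which cytoplasm and polysome loading could be told apart was loaded sooner than it was lost. The cytoplasmic half-life was longer than the loading half-life for 49 of 54 members and shorter for 0 in K562 (55.9% and 0.243% of all genes), and longer for 46 and shorter for 0 in NIH-3T3 (46.8% and 0.515% of all genes). The fastest loaded in K562 were SNRNP200 (0.51 and 0.67 min), SF3B3 (0.60 and 0.57 min) and PRPF8 (0.57 and 1.0 min), values far below the shortest labelling time of 15 min. In NIH-3T3 they were CDC40 (0.59 and 0.42 min), PRPF8 (2.0 and 1.1 min) and SNRPD2 (2.3 and 1.1 min). The slowest were LSM5 (27 and 49 min), LSM8 (3.7 and 88 min) and PRPF18 (12 and 13 min) in K562, and LSM8 (100 and 70 min), SYF2 (22 and 13 min) and LSM6 (7.1 and 32 min) in NIH-3T3. Between the lines 0 of 54 members passed limma at this step, where 0.443% of genes were called longer and 0.395% shorter, and 8 of 54 members had an unadjusted p under 0.05, against 11.2% of all genes. The replicates differed by a median factor of 2.02 in K562 and 1.46 in NIH-3T3.

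The authors' call of nuclear degradation was made for 3 of 54 members in K562 (LSM8, SF3A3 and U2AF1) and 3 of 54 in NIH-3T3 (SNRNP70, SF1 and BCAS2), with 3.25% and 4.37% of all assessed genes called. No member was called in both lines, and of 8579 genes assessed in both 0.618% were. The call asks for a Bayes factor, the likelihood of a model with nuclear degradation over one without, of at least 100 in both replicates; this held for 11381 of 11384 K562 genes and 11623 of 11636 NIH-3T3 genes. In K562 a factor of at least 100 in 1 replicate alone was found for 4 further members and in NIH-3T3 for 9, against 5.90% and 5.95% of all genes.

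LSM8 had the highest factors of the 3 in K562, at 6.9e+17 and 1.6e+42, with a nuclear degradation half-life of 38 min in both replicates (intervals of 31 to 46 and 26 to 46 min). In NIH-3T3 its factors were 1.9e+14 and 0.061, so that 1 replicate passed and the other did not. U2AF1, whose paired exons are printed above, had factors of 1.9e+11 and 1.4e+34 in K562 and degradation half-lives of 140 and 96 min, against factors of 2.9 and 1.3e-08 in NIH-3T3. These factors are from the 4-compartment model. On the model with 3 compartments U2AF1 had 0.023 and 67000 in K562, so only replicate 2 passed there. SF3A3 also passed in both replicates on the 4-compartment model only: its factors were 40000 and 5000 there and 6.2e-09 and 1.4e-09 on the model with 3 compartments, and its degradation half-life was missing in replicate 1 and stood at the upper bound of 6900 min in replicate 2.

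In NIH-3T3 SNRNP70 had factors of 1.3e+104 and 3.1e+72 and degradation half-lives of 55 and 80 min, against factors of 5.8e-08 and 2.7e-07 in K562. SF1 had 8.2e+59 and 1.2e+24 in NIH-3T3, with degradation half-lives of 66 and 80 min, but in K562 2.3e-06 and 4e+10, which split the replicates. BCAS2 had 2.4e+08 and 2.7e+13 in NIH-3T3 against 7.8e-07 and 1.3e-06 in K562. The export half-lives quoted for these genes come from the model without degradation, and with genes called in either line left out, 3 members (PRPF8, U2AF2 and SNRNP200) still differed between the lines in export, all longer in K562. In NIH-3T3, however, PRPF8 had factors of 3.7e+08 and 5.4e-09 and SNRNP200 of 1.3e-08 and 1.1e+18, so each passed in 1 replicate. U2AF2 passed in neither (6.8e-09 and 0.0017). For all 3, NIH-3T3 chromatin half-lives were at or above the nuclear ones in both replicates. For U2AF2 they were 160 and 260 min against 140 and 160 min. Export is the part of the nuclear stay after chromatin, so the chromatin and export differences are not separate observations. Whether the difference in calls between lines exceeds the spread between replicates was not tested.

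The members are shorter genes than most. Their median human gene length was 16717 bases, against 29564 bases over all genes, and their median mRNA length 2106 bases, against 2892 bases. Within the group, the 18 with the shortest coding sequences (231 to 678 bases) had a median whole-cell half-life of 584 min in K562 and 230 min in NIH-3T3, the 18 in the middle 339 min and 137 min, and the 18 with the longest (1545 to 7008 bases) 341 min and 110 min. In K562 the middle and longest classes thus lay within 2 min of each other. The short class is largely Sm and LSM ring genes, so length and role cannot be told apart. Spearman's rho between coding length and K562 whole-cell half-life was -0.30 over the members and -0.15 over all genes. For 14 members GENCODE names at least 1 pseudogene, and how reads from such copies were assigned is not given in the sources used here.

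Other spliceosome genes, taken from lists of helicases, minor spliceosome proteins, the exon junction complex, snRNP assembly and import, further tri-snRNP and complex B proteins and further PRPF19-related proteins, mostly lived longer in K562 as well. The count of whole-cell half-lives called longer was 7 of 8 helicases, 5 of 8 minor spliceosome genes, 7 of 7 exon junction genes, 8 of 16 assembly genes (with 1 shorter), 16 of 18 tri-snRNP and complex B genes and 11 of 15 PRPF19-related genes, read against the 60.2% of all genes above. After centring, 0 helicases were called longer and 1 shorter. The centred counts were 2 and 1 for the minor spliceosome, 3 and 1 for the exon junction complex, 3 and 5 for assembly, 5 and 3 for the tri-snRNP and complex B list and 5 and 1 for the PRPF19-related list. Median log2 differences ran from 0.65 for the assembly genes to 1.31 for the exon junction genes. ZCRB1, of the minor spliceosome, had whole-cell half-lives of 1100 and 1300 min in K562 against 110 and 110 min in NIH-3T3 (log2 difference 3.44, SE 0.13, limma adjusted p = 0.0033). WDR77, a partner of the methyltransferase that modifies Sm proteins, had 630 and 630 min in K562 against 110 and 100 min in NIH-3T3. The minor spliceosome genes, which serve a rare intron class, were shorter-lived than the 54, with medians of 139 min in K562 and 62.7 min in NIH-3T3, and 2 of 8 and 3 of 8 above the all-gene medians.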

How the data were processed

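RNA from 5 fractions of untreated K562 and NIH-3T3 cells was sequenced after 4-thiouridine labelling. Reads were trimmed with cutadapt 2.5 and aligned with STAR 2.7.0a, per the submitters' processing notes. The deposited half-lives (unit: other, minutes) and Bayes factors (unit: other, a ratio without unit) come from the authors' kinetic fit, 1 table per line and replicate. The half-lives carry 2 significant digits and an upper bound of 6900 min, and were not normalized between tables. No depths are known, so the authors' 95% credible intervals gave the precision. The line comparison took log2 of the posterior modes and fitted them in R 4.3.3 with limma 3.58.1, 2 tables against 2, over all genes paired by symbol (14100), without pseudocount, with Benjamini-Hochberg adjustment per step and a threshold of 0.05. Replicate numbers did not pair the tables. Named were the 3 longest and 3 shortest members per step and line (intervals up to 4-fold, except loading), up to 10 called members with the largest differences per step, the extremes of each role group and every member with a degradation call. Members and lists were chosen with earlier results of these data known. The fit was run on simulated whole-cell values with independent noise and no shifts of a whole table, and the outcome is not given here. Alternatives are given at the end.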

Additional observations from a re-analysis of the deposited data

Results flagged for a closer look

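For 22 ratios of half-lives the difference between K562 and NIH-3T3 passed its own test, limma on the difference of the log2 ratios with Benjamini-Hochberg adjustment, and either ranked among the largest or had opposite orders in the lines. Both choices used the same half-lives as the test. No explanation was tested.

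For the ratio of cytoplasmic to nuclear half-life, K562 minus NIH-3T3, the log2 differences were 5.41 for SNRPF, 5.22 for LSM5, 3.98 for PLRG1, 3.67 for SF3A2, 3.57 for LSM4 and 3.25 for CWC15. They were 3.06 for SNRNP200, 2.93 for U2AF1, 2.71 for SNRPA1 and 1.97 for CDC40. In 3 genes the ratio was lower in K562, with -3.12 for BCAS2, -2.19 for SNRPC and -2.10 for LSM2.

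For the ratio of chromatin to export half-life the log2 differences were -5.68 for PRPF8, -4.58 for SNRNP200, -4.32 for U2AF2, -3.56 for EFTUD2 and -3.52 for PRPF19. They were -3.45 for SF1, -3.11 for SNRPB and -3.09 for SF3A1, and 4.37 for LSM8, the one higher in K562. In NIH-3T3 the export replicates of the members differed by a median factor of 1.61, and its part in these differences was not tested. For PRPF8, SNRNP200 and U2AF2 the NIH-3T3 chromatin half-lives were at or above the nuclear ones. The part of that was not tested either.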

How the results depend on the processing

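With 2 tables per line, calls between lines rest on each table. When a table was left out, its line kept 1, assumed to vary like the other line's pair, and the members called numbered 0 to 3 on chromatin, 0 in the nucleus and in export, 0 to 18 in the cytoplasm, 0 to 38 for the whole cell, 0 to 15 for the cytoplasmic to nuclear ratio and 0 to 31 for the chromatin to export ratio. Centring each table gave 15 export, 15 cytoplasmic and 25 whole-cell calls. With a replicate block, 14 nuclear (9 longer in K562, 5 shorter) and 15 export half-lives (14 and 1) were called; replicate differences of the lines correlated at -0.051 to 0.025 over the 6 steps, so the numbers do not pair the tables. Without genes called for nuclear degradation, an alternative chosen after seeing the data, 3 export calls were left. Posterior means in place of modes gave 5 chromatin to export ratios. Asking for intervals 1.5-fold apart left, in K562, 9 members with a longer and 6 with a shorter nuclear than cytoplasmic half-life, and 3 with a longer and 22 with a shorter chromatin than export half-life. In NIH-3T3 it left 3 with a shorter nuclear half-life, and 7 with a longer and 1 with a shorter chromatin half-life. Single replicates gave 14 to 20 K562 members shorter in the nucleus and 3 to 7 with the degradation call, and in NIH-3T3 5 to 10 with that call, 16 to 33 with a longer and 6 to 15 with a shorter chromatin than export half-life. Members above the all-gene median for polysome loading numbered 4 to 11 in K562 and 4 to 9 in NIH-3T3 from single replicates, and 1 in K562 with intervals up to 4-fold only. The causes of these shifts were not tested. Of the values for single genes, 337 kept their side of the threshold and direction, 223 lost the call and 0 reversed.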
